A study of Mus musculus with 4 samples.

Results

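The cells described here are 82 mouse tracheal cells, of 20359 filtered cells in all, gated on transcripts of the deuterosomal stage of multiciliogenesis. A cell was a member if it had at least 300 genes and at most 20% mitochondrial counts, if at least 2 of the genes Deup1, Cdc20b, Ccno and Mcidas were detected, and if fewer than 3 of Mki67, Top2a, Birc5, Ube2c, Cdk1 and Ccnb1 were detected. Detection meant 1 or more unique molecular identifiers (UMIs), which count captured transcripts. Members made up 0.403% of filtered cells, with an exact 95% binomial interval of 0.320 to 0.500%. The data bore out the deuterosomal label only in part. In 20 members the gate genes summed to at least 4 UMIs, and in 62 members to 2 or 3. Pooled, the 20 had higher levels of most further deuterosomal genes named below than the 62. Not every one of the 20 cells had transcripts of those further genes. They do not stand for whole lists, and Shisa8 was picked after its values were seen. Of 7 regulators of multiciliogenesis tested, 1 was higher in the 20 by a log2 ratio of at least 1 and 0 were lower. Of 12 centriole assembly genes tested, 3 were higher and 2 lower.

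Deuterosomal cells are a short stage between a committed precursor and a ciliated cell, in which a non-dividing cell makes the many centrioles that become the basal bodies of its cilia. Mcidas starts this programme with E2F partners, Ccno is a cyclin-like protein needed for centriole amplification, Deup1 builds the deuterosome on which procentrioles form, and Cdc20b is a relative of the cell division protein Cdc20 that helps to release them. The stage uses parts of the cell cycle machinery without cell division.

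The mice were on the 129S6/SvEvTac background and 5 to 8 months old. The groups were bgh, with mutated Spef2, from 5 pooled tracheas, and Cfap54gt/gt, a gene trap in Cfap54, nm1054, which lacks Cfap221, and wild-type, from 6 pooled tracheas each. Each group was 1 library, so no value had a biological replicate and no test between genotypes was possible. Cells were freed with pronase, plated to separate fibroblasts and cleared of dead cells before 3' droplet sequencing. The sources used here did not tie a library number to a genotype, so libraries are called 1 to 4 and no genotype was read from the values.

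Libraries 1 to 4 held 3808, 3955, 7156 and 5440 filtered cells. Members numbered 19, 14, 23 and 26, which was 0.499, 0.354, 0.321 and 0.478% of filtered cells, and the intervals of the shares overlapped. Members were deep, with a median of 14332 UMIs and a range of 828 to 50482, against a median of 6708 UMIs over all filtered cells. When every cell was thinned to 1500 UMIs, 12 members were left. Doublet scoring marked 16 of the members and 888 filtered cells in all, and marked cells were kept. No member had a barcode sequence found in another library, of 52 such sequences. Intervals here and below cover counting error only.

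**Figure D1:**
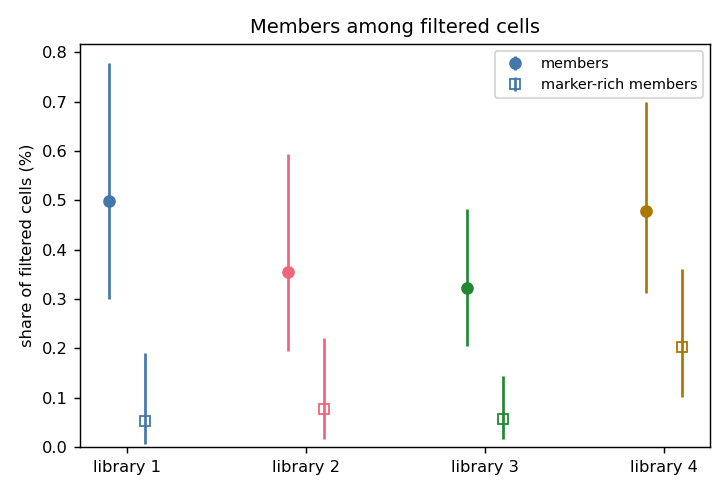
Share of filtered cells (y axis, percent) that were members (filled circles) and members with at least 4 marker UMIs (open squares), for libraries 1 to 4 on the x axis, with exact 95% binomial bars. The bars of the member shares, at 0.321 to 0.499%, overlapped.

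Ccno, Mcidas and Cdc20b lie next to one another on mouse chromosome 13, followed by Gpx8, while Deup1 lies on chromosome 9. Promoter windows of 3 of the 4 genes held a half-site of the RFX factors, which drive ciliary genes, and they are shown because these genes define the cells. Each run spans 250 bases before to 50 bases after the annotated start, from RefSeq on GRCm38.p6, 5' to 3' on the strand of the gene, with the half-site in capitals (GTTGCCA, or TGGCAAC where it lies on the opposite strand).
Ccno: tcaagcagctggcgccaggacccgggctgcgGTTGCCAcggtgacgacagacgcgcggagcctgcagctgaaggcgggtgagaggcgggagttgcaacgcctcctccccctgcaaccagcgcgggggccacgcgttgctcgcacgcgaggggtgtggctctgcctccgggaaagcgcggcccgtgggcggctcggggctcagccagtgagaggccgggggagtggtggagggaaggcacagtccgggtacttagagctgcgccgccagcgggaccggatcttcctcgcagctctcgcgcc
Mcidas: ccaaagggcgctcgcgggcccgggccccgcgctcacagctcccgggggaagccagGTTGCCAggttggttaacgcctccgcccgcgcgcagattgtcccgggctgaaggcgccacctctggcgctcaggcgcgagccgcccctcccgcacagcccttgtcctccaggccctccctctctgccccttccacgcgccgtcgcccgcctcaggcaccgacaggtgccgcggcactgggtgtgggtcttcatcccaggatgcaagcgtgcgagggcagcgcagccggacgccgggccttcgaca
Deup1: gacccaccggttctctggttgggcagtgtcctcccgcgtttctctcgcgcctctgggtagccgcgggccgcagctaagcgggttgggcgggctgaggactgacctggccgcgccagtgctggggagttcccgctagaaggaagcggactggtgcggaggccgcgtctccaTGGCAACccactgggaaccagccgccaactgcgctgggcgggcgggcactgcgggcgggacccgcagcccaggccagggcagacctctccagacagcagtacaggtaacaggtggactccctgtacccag
The windows are chr13:112987552-112987851 on the plus strand for Ccno, chr13:112993618-112993917 on the plus strand for Mcidas and chr9:15627797-15628096 on the minus strand for Deup1. The half-site starts at -219 in Ccno, -195 in Mcidas and -80 in Deup1, counted from the annotated start. It was searched as GTTGCCA or GTTGCTA on both strands, and 8.77% of all 27025 genes in the table had a match. A second Deup1 window held a MYB match (TAACTGNC, CAACTGNC, CAACGGNC or TAACGGNC), as did 8.80% of all genes. An E2F site (TTTCCCGC, TTTGGCGC, TTTCGCGC or TTTGCCGC) was in 0 of the 4 genes and in 2.61% of all genes, and the forkhead motif TGTTTAC in 0 of the 4 and in 4.05%. A match describes letters only, and binding was not measured.

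Deup1 with Ccno was the pair in 51 members and Ccno with Mcidas in 14. Deup1 with Mcidas marked 4 members and Deup1 with Cdc20b 2, while 6 had Deup1, Ccno and Mcidas and 5 had all 4 genes. The summed UMIs of the 4 genes were 2 in 49 members, 3 in 13, and at most 27. The 71 members with exactly 2 of the genes had a median of 12862 UMIs. Just outside the gate, 1726 cells had exactly 1 of the genes, at a median of 5883.5 UMIs, and that gene was Ccno in 1176 of them and Deup1 in 516.

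The gate genes chose the cells, so their levels are a description. Deup1 stood at 57.8, 92.8, 78.6 and 121 counts per 1000000 UMIs (CPM) in members of libraries 1 to 4, against 12.4, 16.9, 22.3 and 15.2 CPM in ciliated gate cells, which are defined below. Ccno stood at 60.4, 131, 94.95 and 165 CPM in members, against 27.1, 23.3, 27.9 and 33.9 CPM in ciliated gate cells. Mcidas stood at 18.4, 42.2, 29.5 and 25.6 CPM in members, and Cdc20b had 9 UMIs over all members.

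Non-members were gated on the share of their UMIs in 8 ciliated, 8 basal or 8 secretory genes. The ciliated gate held 4493 cells, the basal gate 4622 and the secretory gate 7841, at median depths of 2446, 4088 and 12376 UMIs. Single gate genes were found in all 3 classes. Deup1 was detected in 5.72% of ciliated, 0.0433% of basal and 2.104% of secretory gate cells, and Ccno in 8.97, 7.53 and 3.06%. Mcidas was detected in 0.2003, 0.0865 and 0.179% of the same classes, and Cdc20b in 3 secretory gate cells and 0 ciliated or basal gate cells. In 22 leukocytes, at a median of 2065.5 UMIs, all 4 genes had 0 UMIs, which allows up to 15.4% of such cells to have a UMI at this depth and does not limit how many express the genes. After thinning to 1500 UMIs, Deup1 was detected in 2.12% of ciliated and 0.206% of secretory gate cells, and Ccno in 5.81 and 0.361%.

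Members fell into several classes, mostly ciliated or secretory. By the class gates, 31 members were ciliated, 27 secretory, 15 mixed, 9 low in all 3 lists and 0 basal. At least 4 of 7 tuft markers were detected in 2 members, and at least 4 of 7 neuroendocrine markers in 1. The ciliated gate genes summed to 4052 CPM in members, against 9625 CPM in ciliated and 589 CPM in secretory gate cells. The secretory gate genes summed to 164415 CPM in members, against 8465 CPM in ciliated and 361119 CPM in secretory gate cells. The basal gate genes summed to 545 CPM in members, against 74.1 CPM in ciliated, 629.9 CPM in secretory and 5252 CPM in basal gate cells. These sums pool all members and do not show which transcripts shared a cell. Doublet marks fell on 19.5% of members. They fell on 0.668% of ciliated, 1.25% of basal, 6.71% of secretory, 15.3% of mixed and 2.35% of low non-members. The part of marked cells in these sums was not tested.

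Gpx8, a peroxidase gene beside Cdc20b, stood at 49.9, 84.3, 65.5 and 39.6 CPM in members of libraries 1 to 4, against 64.9, 92.3, 121 and 53.8 CPM in ciliated gate cells. Its median log2 ratio of members over ciliated gate cells was -0.34, which did not pass the call defined next. The median for Dhx29, on the other side of Ccno, was 0.14.

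Because members fell into several classes, they were set against non-members of the same library, weighted to the members' own mix of gates. This comparison was added after the data had been seen. The weighting did not even out the ciliated gate genes. They summed to 5014, 3407, 3670.5 and 3827 CPM in members of libraries 1 to 4. In same-class cells they summed to 3494, 2242, 2195 and 2558 CPM. The part of this gap in the calls was not tested. A gene was called where its log2 ratio, with 10 CPM added to each level, was at least 1 or at most -1 in each of the 4 libraries, among genes with at least 30 UMIs. Of 7181 genes tested, 7 were higher in members, which is 0.0975%, and 3 were lower, which is 0.0418%. The median log2 ratio over all tested genes was 0.15.

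Cks2, Smc4 and Myb were among the higher genes. Cks2, a partner of cyclin-dependent kinases, stood at 57.8, 54.8, 39.3 and 100.04 CPM in members of libraries 1 to 4, against 7.497, 8.15, 11.8 and 9.56 CPM in same-class cells, with a median log2 ratio of 1.90. Smc4, a condensin subunit, stood at 36.8, 33.7, 32.7 and 74.4 CPM in members, against 10.9, 9.68, 10.1 and 10.9 CPM in same-class cells (1.16). The call itself requires members to lie above same-class cells in each library, so this is no further result. Myb, a transcription factor that drives centriole amplification, stood at 44.6, 75.9, 65.5 and 100.04 CPM in members, against 13.7, 10.9, 13.6 and 16.01 CPM in same-class cells (1.86). When cells were thinned to 1500 UMIs the median for Myb turned to -1.61, at few UMIs per library.

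The other 4 were Cox6b2, Cfap36, Acot7 and Ropn1l. Cox6b2, a cytochrome c oxidase subunit best known from testis, stood at 47.3, 96.99, 32.7 and 51.2 CPM in members of libraries 1 to 4, against 8.896, 5.71, 7.38 and 6.68 CPM in same-class cells (1.74). The cilia and flagella associated gene Cfap36 stood at 189, 228, 180.1 and 330.4 CPM in members, against 87.5, 63.99, 63.8 and 88.6 CPM in same-class cells (1.52). For both genes the call itself requires such a gap in every library. The acyl-CoA thioesterase Acot7 had a median log2 ratio of 1.49, and the radial spoke gene Ropn1l one of 1.14. Ropn1l overlapped its ciliated level, at 73.5, 50.6, 52.4 and 79.1 CPM in members, against 70.4, 81.4, 78.1 and 70.5 CPM in ciliated gate cells. The 3 lower genes were the goblet peptide gene Tff2 at -2.84, the keratin gene Krt16 at -2.04 and the lysozyme gene Lyz1 at -1.62, whose reads may be shared with Lyz2. Without doublet-marked cells, Cks2 at 1.52 and Cox6b2 at 1.75 were still called, while Myb at 1.43, Cfap36 at 1.39, Acot7 at 1.28, Ropn1l at 1.15 and Smc4 at 0.99 were not. The count of higher genes was 21 without library 1 and 14 without library 3, where the call had 1 library fewer to pass.

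**Figure D2:**
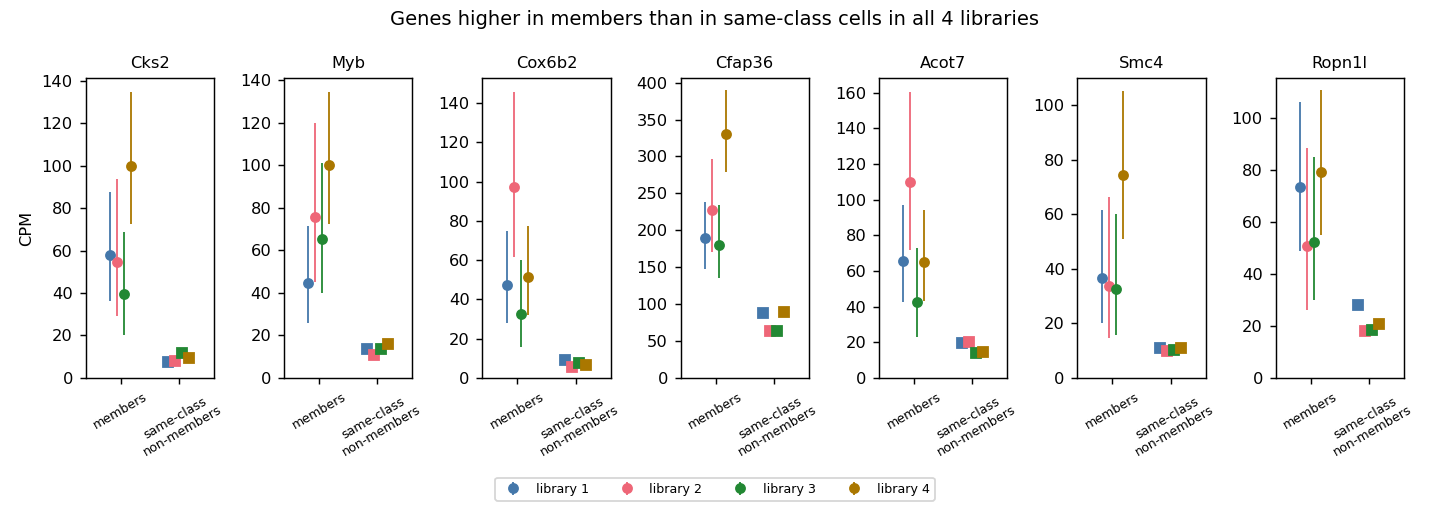
CPM (y axis) of the 7 genes higher in members (circles, exact 95% Poisson bars) than in non-members of the same class mix (squares), 1 colour per library. In each library the circle lies above the square, as the call requires. Smc4 stood at 32.7 to 74.4 CPM in members against 9.68 to 10.9 CPM in same-class cells.

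Of the genes higher than in same-class cells, Cks2, Smc4, Myb, Cox6b2 and Acot7 were higher in the 20 members with at least 4 marker UMIs than in the other 62. The 20 are called marker-rich and the 62 marker-thin. The split was chosen after the data had been seen. Marker-rich members came to 2, 3, 4 and 11 in libraries 1 to 4 and had a median of 24686 UMIs, against 12727 in marker-thin members. By gate, 4 marker-rich members were ciliated, 9 secretory, 3 mixed and 4 low, against 27, 18, 12 and 5 of the marker-thin members. Doublet marks fell on 6 marker-rich and 10 marker-thin members.

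**Figure D3:**
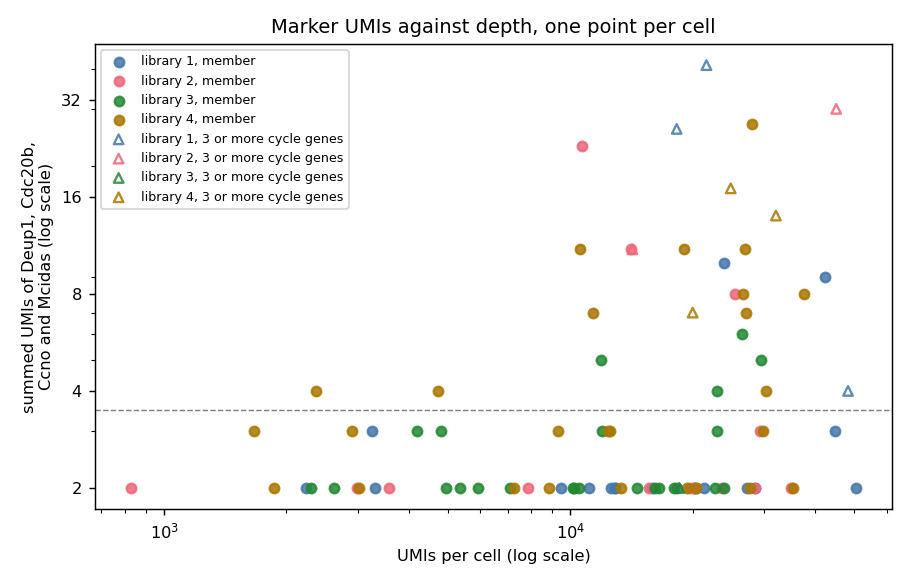
Summed UMIs of Deup1, Cdc20b, Ccno and Mcidas (y axis, log scale) against UMIs per cell (x axis, log scale), 1 point per cell, coloured by library. Filled circles are the 82 members, open triangles the 9 cells with 3 or more cycle genes, and the dashed line parts the 20 marker-rich from the 62 marker-thin members.

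With libraries pooled, 133 of 5330 genes were higher in marker-rich than in marker-thin members by a log2 ratio of at least 1, which is 2.5%, and 302 were lower, which is 5.67%. The 12 highest were Smc4, Cks2, Acot7, Crocc2, Myb, Pcnt, Cox6b2, Isyna1, Acyp1, Asrgl1, Dxo and Stmn1. Smc4 stood at 128 CPM in marker-rich members, against 9.76 CPM in marker-thin members, with UMIs in 16 of 20 and 9 of 62 cells. Cks2 stood at 172 CPM in marker-rich members, against 17.4 CPM in marker-thin members, and Myb at 165 CPM in marker-rich members, against 29.3 CPM in marker-thin members. Crocc2, a relative of the rootlet gene Crocc, stood at 95.1 CPM in marker-rich members, against 11.9 CPM in marker-thin members, and the pericentriolar scaffold gene Pcnt at 146 CPM in marker-rich members, against 26.04 CPM in marker-thin members. In ciliated gate cells Smc4 stood at 9.66, Cks2 at 12.8 and Myb at 41.9 CPM, beside the marker-thin levels above. Thinned to 1500 UMIs, the ratio of Crocc2 turned to -0.58. The lower genes were led by Aoc1, Calml3, Kcnrg, Fos, Ly6c1 and Calml4. Without library 4, which held 11 of the 20 cells, 85 genes were higher and 573 lower, and without library 1 the lower count was 173.

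Of 7 regulators of multiciliogenesis tested over marker-thin members 1 was higher and 0 lower, at a median log2 ratio of 0.04, against 2.5% and 5.67% of all genes. The list summed to 689 CPM in marker-rich members, against 512 CPM in marker-thin members. The single genes that follow had few UMIs. Foxn4, a forkhead factor of multiciliated precursors known from Xenopus, had 5 UMIs in 5 marker-rich members, against 1 UMI in marker-thin members. The E2F repressor gene E2f7 stood at 44.1 CPM in marker-rich members, against 2.17 CPM in marker-thin members, and the cyclin gene Ccna1 at 37.1 CPM in marker-rich members, against 9.76 CPM in marker-thin members and 3.94 CPM in ciliated gate cells. Plk4, the kinase that starts procentriole formation, stood at 62.6 CPM in marker-rich members, against 10.8 CPM in marker-thin members and 15.7 CPM in ciliated gate cells. Shisa8, a membrane protein gene picked after its values were seen, stood at 57.96 CPM in marker-rich members, against 4.34 CPM in marker-thin members and 0.119 CPM in ciliated gate cells. Gmnc, which acts upstream of Mcidas, had 1 UMI in marker-rich and 0 in marker-thin members.

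Against same-class cells, 246 of 3513 genes were higher in marker-rich members, which is 7%, and 54 were lower, which is 1.54%. Without library 4 the counts were 160 and 35. The 12 highest were Cks2, Cox6b2, Myb, Crocc2, Lrrc23, Tuba1b, Acot7, Smc4, Meig1, Cfap36, Tmem107 and Acyp1. Tuba1b, an alpha-tubulin whose reads may be shared with Tuba1a, stood at 948 CPM in marker-rich members, against 133 CPM in same-class cells. The radial spoke gene Lrrc23 stood at 339 CPM in marker-rich members, against 38.9 CPM in same-class cells. Of 16 regulators of multiciliogenesis only 3 could be tested, and all 3 were higher, Myb at 3.003, Foxj1 at 1.20 and Hes6 at 1.14. A gene was tested where its UMIs in marker-rich members and those expected from same-class cells summed to at least 30. A gene low in same-class cells could pass this filter only through its marker-rich level, so such counts are a description. Foxj1, the forkhead factor that switches on motile cilia genes, stood at 197 CPM in marker-rich members, against 79.97 CPM in same-class cells and 350.1 CPM in ciliated gate cells. The ciliated gate genes summed to 3067 CPM in marker-rich members, against 1807 CPM in same-class cells. Tuft markers summed to 11.6 CPM in marker-rich members, against 171 CPM in same-class cells. The part of these gaps in the calls was not tested.

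The lowest genes in that comparison were Tff2, Tff1, Apoe, Lrmp, Hspa1a, Hspa1b, Lyz1, Sftpa1, Ly6c1, Arc, Calcb and Kctd12. The ratio of Tff1 rested on library 4, at -3.88 with it and -0.41 without it. Tff2 was lower with and without that library, at -7.05 and -2.24. Of the 12 highest genes, 11 had promoters in the table, with the RFX half-site in Cfap36, Lrrc23 and Meig1, the forkhead motif in Myb and the MYB motif in Crocc2.

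Centriole assembly genes were called higher in marker-rich members mainly over same-class cells, where 7% of all genes were. The list of 35 summed to 1166 CPM in marker-rich members, against 406 CPM in same-class cells, 786 CPM in marker-thin members and 1310.1 CPM in ciliated gate cells. A marker-rich member had a median of 11.5 of these genes detected and a marker-thin member 5, at the depths given above. Of 7 tested over same-class cells, 5 were higher, namely Cep120, Spice1, Ccp110, Cetn2 and Mdm1. Mdm1, a microtubule-binding centriole protein, had a log2 ratio of 2.04 and Ccp110, which caps centrioles, 1.64. The filter on UMIs given above applied here too, so this count is a description. Of 12 tested over marker-thin members, Plk4 at 1.80, Poc5 at 1.37 and Mdm1 at 1.35 were higher, and Cetn4 at -1.26 and Ccdc78 at -1.24 were lower, where 2.5% of all genes were higher and 5.67% lower. Among genes too low to test, Stil, needed for cartwheel assembly, had 6 UMIs in marker-rich and 1 in marker-thin members, Cep152, which recruits Plk4, 7 and 3, and Cenpj, which acts in centriole elongation, 5 and 0.

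Of 18 basal body appendage genes, 7 could be tested in marker-rich members over same-class cells. The same filter on UMIs applied, so the counts in this paragraph are a description. The 18 appendage genes summed to 1113 CPM in marker-rich members, against 401 CPM in same-class cells and 1285 CPM in ciliated gate cells, and Odf2, Cep164, Cep83, Cntrl and Cby1 were higher of 7 tested. Cby1, which acts in basal body docking, stood at 102 CPM in marker-rich members, against 12.8 CPM in same-class cells. The 15 transition zone genes summed to 1071 CPM in marker-rich members, against 312 CPM in same-class cells and 1217 CPM in ciliated gate cells, and Tmem107 was among the 12 highest genes named above. Of 19 intraflagellar transport genes tested 8 were higher, of 8 central pair genes 3 (Spag6l, Spag17 and Cfap69) and of 9 inner arm and nexin genes 1 (Gas8), against 7% of all genes tested, a share to which the last count is close.

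**Figure D4:**
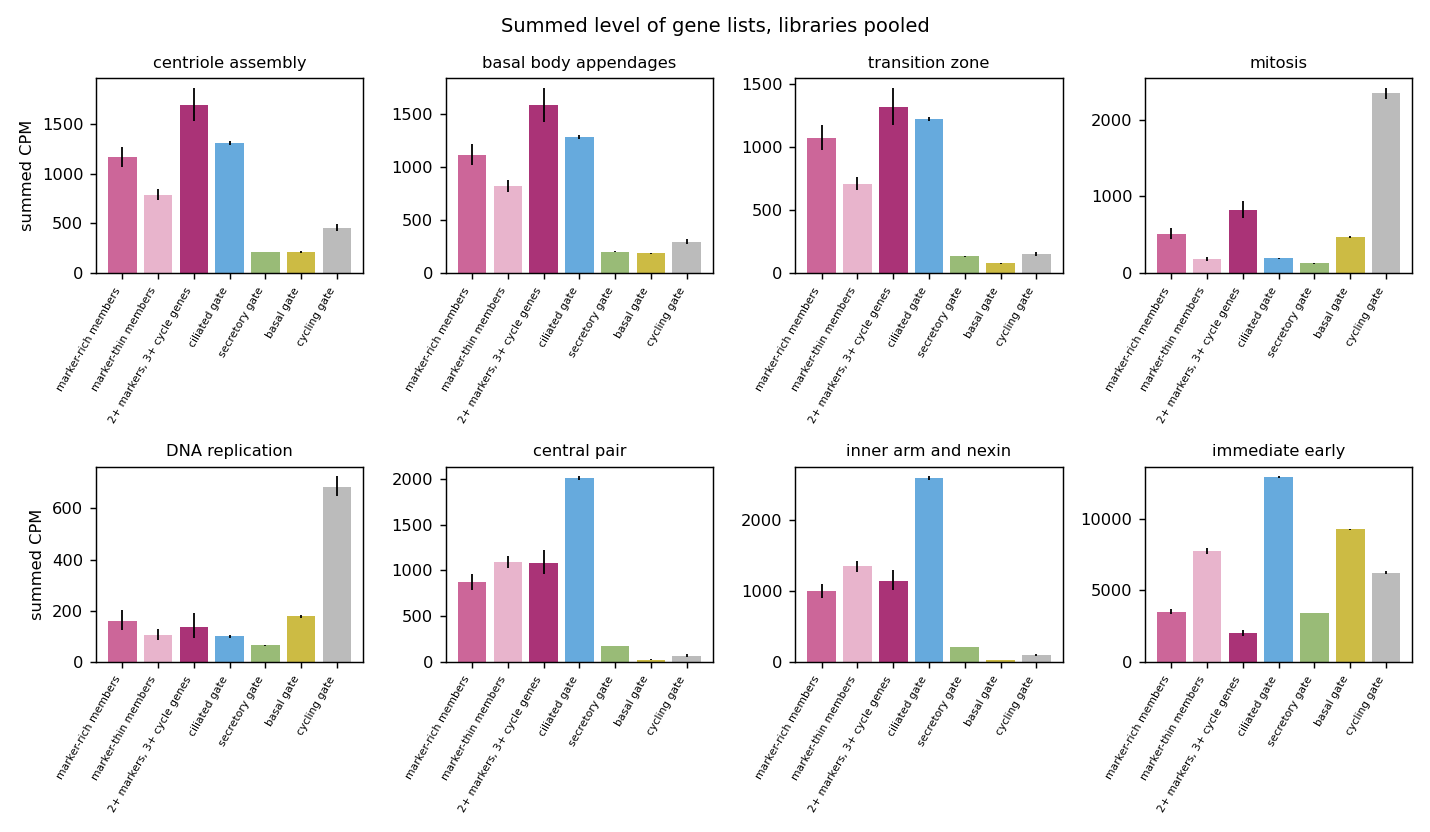
Summed CPM (y axis, from 0) of 8 gene lists in marker-rich members, marker-thin members, the 9 cells with at least 2 gate genes and 3 or more cycle genes, and the non-member gates, libraries pooled, with exact 95% Poisson bars. Centriole assembly was 1166 CPM in marker-rich members against 786 CPM in marker-thin members, and mitosis genes 515 CPM against 2346 CPM in cycling gate cells.

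The limit on cycle genes set aside 9 cells that had at least 2 gate genes, 8 with exactly 3 cycle genes and 1 with 5. Among members, 63 had 0 cycle genes, 13 had 1 and 6 had 2. The 9 cells came to 3, 2, 1 and 3 in libraries 1 to 4, had a median of 21604 UMIs, and 2 carried doublet marks. Myb stood at 165 CPM in marker-rich members and 223 CPM in the 9 cells, Cks2 at 172 CPM in marker-rich members and 251 CPM in the 9 cells, and Ccna1 at 37.1 and 128 CPM in the same order of groups. The rule set these cells aside by their cycle genes, so the larger values of the 3 genes there are a description. Their gate genes summed to a median of 14 UMIs, against 8 in marker-rich members. The centriole assembly list summed to 1694 CPM in the 9 cells. Sntn, a protein of the ciliary tip and a gene of the ciliated gate, stood at 51.01 CPM in marker-rich and 218 CPM in marker-thin members. It had 0 UMIs in the 9 cells and stood at 476 CPM in ciliated gate cells. Sntn was the only 1 of the 8 ciliated gate genes with 0 UMIs in the 9 cells. The 8 genes summed to 3103 CPM there, against 3067 CPM in marker-rich and 4513 CPM in marker-thin members.

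Members were limited to fewer than 3 cycle genes and cycling gate cells had at least 3, so their difference in mitotic transcripts was largely set by the rule and is a description. The cycling gate held 128 non-members with at least 3 cycle genes and fewer than 2 gate genes, of which 77 lay in the basal gate. Over 18 mitosis genes outside the gate, marker-rich members summed to 515 CPM, marker-thin members to 184 CPM and the 9 cells to 824 CPM, against 2346 CPM in cycling gate cells. Same-class cells of the marker-rich members were at 171 CPM and ciliated gate cells at 190.2 CPM. The DNA replication list summed to 159.98, 104 and 136 CPM in the same groups, against 686 CPM in cycling gate cells. Plk1, the mitotic entry kinase, had 0 UMIs in all members, against 25.2 CPM in cycling gate cells.

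Over cycling gate cells, 379 of 7963 genes were higher in members, which is 4.76%, and 165 were lower, which is 2.07%. Of 18 mitosis genes tested, 12 were lower, at a median log2 ratio over the list of -2.49, and of 15 DNA replication genes Mcm3, Mcm4, Mcm5, Pcna and Tyms were lower (-1.43). Prc1, a protein of the spindle midzone, stood at 2.63, 12.7, 3.27 and 4.65 CPM in members of libraries 1 to 4, against 342, 128, 223 and 297 CPM in cycling gate cells. The tubulin-binding gene Stmn1 stood at 31.5, 46.4, 88.4 and 86.1 CPM in members, against 662, 483, 952 and 1171 CPM in cycling gate cells. The call itself requires such a gap for both genes in every library. Meig1 and Pifo led the higher genes at 4.09 and 3.91, and Foxj1 was higher at 3.77.

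Over ciliated gate cells, 53 of 11179 genes were higher in members, which is 0.474%, and 64 were lower, which is 0.573%, at a median over all tested genes of -0.14. The higher genes were led by Ltf, Msln, Sftpa1, Krt23, Tgfb2, Trf, Dmbt1, Pon1, Cd44, Ly6d, Elapor1 and Muc1. Ltf, the iron-binding defence protein lactoferrin, stood at 3241, 1957, 4214 and 2478 CPM in members of libraries 1 to 4, against 40.6, 45.5, 110.2 and 41.5 CPM in ciliated gate cells and 3665, 4036, 4776 and 4147 CPM in secretory gate cells. Msln, mesothelin, stood at 583, 489, 334 and 402 CPM in members, against 15.2, 14.1, 28.6 and 17.4 CPM in ciliated gate cells. The call itself requires both to lie above the ciliated level in every library, and the secretory gate sums are given above.

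The lower genes were led by Pcp4l1, Dcdc2b, Myl4, Ifitm1, Aoc1, Prr29, 1700024G13Rik, Tmem158, Cfap100, Akr1b8, Ldlrad1 and Dnah7a. Ifitm1, an interferon-induced membrane protein, stood at 3047, 1408, 2662 and 2206 CPM in members of libraries 1 to 4, against 9241, 8399, 7882 and 7995 CPM in ciliated gate cells. Cfap100, a cilia and flagella associated gene, stood at 42.02, 29.5, 42.6 and 58.2 CPM in members, against 157, 147, 134 and 166 CPM in ciliated gate cells. The inner arm heavy chain gene Dnah7a was lower at -1.53, with reads that may be shared with Dnah7b and Dnah7c. The count of lower genes was 187 without library 1, where the call had 1 library fewer to pass, and 16 without doublet-marked cells. It was 412 for the 11 members with at least 3 gate genes. Of these, library 1 held 0 with 3 gate genes and 1 with all 4, so the call rested there on 1 cell.

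By the median ratio of their genes, lists of ciliary genes ranged from near the median of all tested genes, -0.14, to below it. By summed level, centriole assembly genes were lower in members, at 908 CPM against 1310 CPM in ciliated gate cells. Appendage genes summed to 914 CPM in members, against 1285 CPM in ciliated gate cells. Median log2 ratios of members over ciliated gate cells were -0.11 for 28 centriole assembly genes, -0.23 for 18 appendage genes, -0.43 for 15 transition zone genes and -0.65 for 30 intraflagellar transport genes, with 0 called in each. They were -0.70 for 16 radial spoke genes, -0.73 for 12 outer dynein arm genes and -0.89 for 18 central pair genes, again with 0 called. Of 17 doublet inner protein genes 2 were lower, at a median of -1.04, and Cfap45 was 1 of them. Of 16 regulators of multiciliogenesis 14 were tested and 0 called, at -0.25. Foxj1 stood at 171, 127, 144 and 326 CPM in members of libraries 1 to 4, against 274, 391, 385 and 386 CPM in ciliated gate cells, with library 4 closest to the ciliated level. Of 17 Notch pathway genes 10 were tested and 0 called.

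**Figure D5:**
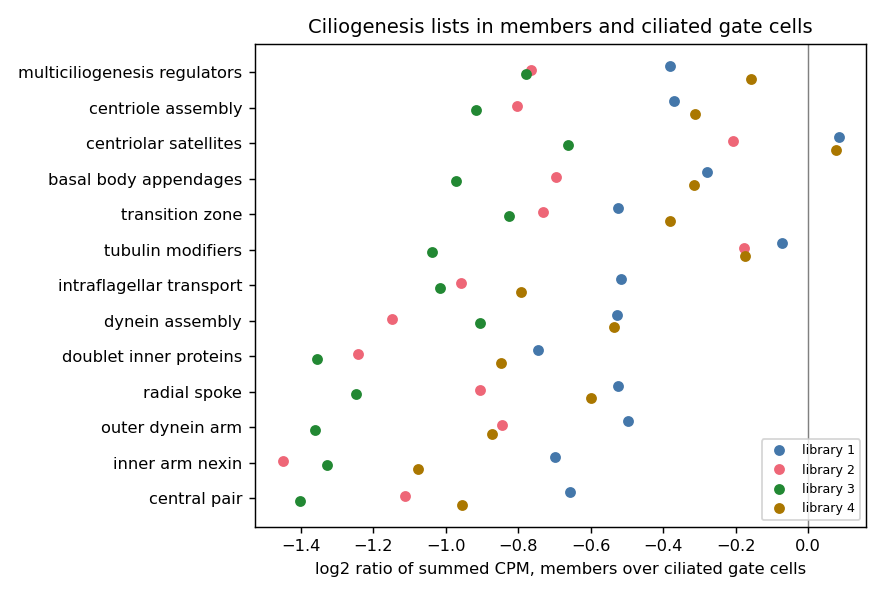
Log2 ratio of the summed CPM of ciliogenesis lists in members over ciliated gate cells (x axis), 1 point per library. Central pair genes lay at -1.40 to -0.66 and centriole assembly genes at -0.92 to -0.31.

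Over basal gate cells, 574 of 11302 genes were higher in members, which is 5.08%, and 331 were lower, which is 2.93%. Central pair genes were higher in 14 of 16 tested, at a median log2 ratio of 2.54, and centriole assembly genes in 6 of 28 (0.55). Rsph1, a radial spoke head protein, stood at 557, 539.7, 409 and 719 CPM in members of libraries 1 to 4, against 7.34, 7.12, 7.45 and 6.00 CPM in basal gate cells. Krt17, a basal keratin, stood at 168, 367, 55.7 and 116 CPM in members, against 3088, 4011, 3733 and 2379 CPM in basal gate cells.

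Over secretory gate cells, 404 of 12704 genes were higher in members, which is 3.18%, and Tff2 and Lyz1 were lower, which is 0.0157%. The higher genes were led by Meig1, Morn5, Lrrc23, Rsph1, Tuba1a and Hdc. Hdc, the histamine-forming enzyme, stood at 171, 160.2, 141 and 142 CPM in members of libraries 1 to 4, against 12.3, 12.9, 19.8 and 12.2 CPM in secretory gate cells. The median over all tested genes was 0.25, and with trimmed-mean (TMM) scaling the counts were 150 higher and 31 lower.

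No gene outside the gate had a median log2 ratio of at least 1 over all 4 classes. By the smallest of the 4 medians Cox6b2 led at 0.92, then Trap1 and Asrgl1 at 0.91, followed by Rasgef1a, Tmem150a, Acta1, Slc25a46, E2f7, Crocc2, Dxo, Dclk1, Yipf2, Dtnb, Myb and Dlg5. Trap1, a mitochondrial chaperone, had UMIs in 32 members and the asparaginase gene Asrgl1 in 30. Acta1, skeletal muscle actin, rested on 11 members, and Dclk1, also a tuft marker, on 9.

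Members also differed in their share of ciliated gate genes. At a scaled score of at least 0.25, where 1 is the 95th percentile of the library, 36 members had a median of 8341 UMIs, 5 marker-rich cells and 1 doublet mark, against 21512.5 UMIs, 15 marker-rich cells and 15 doublet marks in the other 46. Pooled, 628 of 5330 genes were higher in the 36, which is 11.8%, and 144 were lower, which is 2.7%. Central pair genes were higher in 12 of 14 tested, and Foxj1 at 1.504, Rfx3 at 1.46, Hes6 at 1.45 and Rfx2 at 1.28 were higher. Ltf at -2.65 and Tgfb2 at -2.87 were lower. The score is built from ciliated genes of the same cells, so these counts are a description.

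Early response genes differed between the member groups. The 11 genes summed to 3503 CPM in marker-rich members, against 7762 CPM in marker-thin members, 5642 CPM in same-class cells of the marker-rich members, 12932 CPM in ciliated and 3395 CPM in secretory gate cells. The ciliated gate held 4 of the 20 marker-rich and 27 of the 62 marker-thin members. Fos, Fosb, Jun, Ier2, Atf3, Hspa1a and Hspa1b were lower in marker-rich than in marker-thin members, which is 7 of 11 against 5.67% of all genes, and the last pair are near-identical copies. Fos stood at 176 CPM in marker-rich members, against 974 CPM in marker-thin members.

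The genes mutated in the study encode central pair proteins. Spef2 stood at 89.3, 101, 111 and 95.4 CPM in members of libraries 1 to 4, against 165, 251, 244 and 241 CPM in ciliated gate cells. Cfap54 stood at 86.7, 0, 49.1 and 46.5 CPM in members, against 118, 4.58, 119 and 124 CPM in ciliated gate cells, and the 0 UMIs in library 2 allow up to 15.6 CPM. Cfap221 stood at 10.5, 8.43, 0 and 2.33 CPM in members, against 11.7, 14.1, 0 and 10.7 CPM in ciliated gate cells. A mutation or gene trap need not lower the 3' tag of its transcript.

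Between libraries, 255 of 1989 genes with at least 100 UMIs in members stood apart, which is 12.8%, in that the highest level was at least 2 times the lowest and their 95% intervals did not overlap. With 1 library per genotype, genotype and pool cannot be told apart. The genes that follow were picked by ratio after their values were seen. Hspa1a stood at 326, 37.95, 308 and 288 CPM in members of libraries 1 to 4 and Fosb at 121, 37.95, 232 and 293 CPM, with library 2 lowest for both. Dbi, an acyl-CoA-binding protein, stood at 252, 236, 0 and 230.3 CPM, with UMIs in 17, 12, 0 and 24 members. Acyp1, an acylphosphatase, stood at 91.9, 88.6, 32.7 and 147 CPM, highest in library 4 and lowest in library 3. Libraries 1 to 4 held 2, 3, 4 and 11 marker-rich members, and a link of that number to Acyp1 was not tested. Dmbt1, a secreted scavenger protein, stood at 213, 118, 108 and 20.9 CPM, with 27.8% of its UMIs in 1 cell.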

How the data were processed

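Droplet 3' libraries from 4 mouse tracheal cell suspensions were used. The deposited values are raw UMI counts per gene and barcode, made with Cell Ranger 6.0.1, per the file headers, on GRCm39, per the submitters' processing notes. They held 21667 barcodes, of which 20359 passed the filter of 300 genes and 20% mitochondrial counts.

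UMIs were summed per class and library and scaled to CPM by total UMIs. Ratios were log2 with 10 CPM added. With 1 library per genotype, and libraries not tied to genotypes, no p-value was computed. Doublets were scored with 2 simulated doublets per cell, 2000 variable genes and 30 components, marking a share of cells that grew with the size of the library (888 in all), and were kept. Classes were the highest of 3 scaled gate scores, at least 0.25, with the next at most 0.5 of it. The 12 genes with the largest ratio in each direction, 15 leading genes and members of fixed lists were named. Members and lists were chosen with earlier results of these data known. The same-class comparison, the marker-rich split and the cells past the cycle limit were added after the data had been seen. The calls were tested on simulated data. Python 3.11.15, numpy 2.4.6, scipy 1.17.1, pandas 2.3.3, scikit-learn 1.9.0, R 4.3.3 and edgeR 4.0.16 (for TMM factors) were used. Alternatives covered the pseudocount, UMI minimum, thinning, scaling, gates, doublets and leaving out each library. Single-gene calls of the transition zone list are not reported here in full. Promoter sequences came from RefSeq on GRCm38.p6, and no coordinates were carried between builds.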

Additional observations from a re-analysis of the deposited data

How the results depend on the processing

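No paired analysis was possible because each genotype had 1 library and the groups shared only replicate number 1. Depth and the small number of members limited the values, and after thinning to 1500 UMIs members held few UMIs per library. The cause of the changes below was not tested.

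Of 82 members, 11 had at least 3 gate genes, 12 were left after thinning and 20 had at least 4 marker UMIs. With 1 CPM added in place of 10, the counts higher and lower were 141 and 223 over ciliated, 953 and 696 over basal, and 949 and 38 over secretory gate cells, and 30 and 6 over same-class cells, with 278 lower over cycling gate cells and 222 lower in members with a high ciliated score. With 30 CPM they were 21 and 27 over ciliated, 288 and 203 over basal, and 188 and 66 over cycling gate cells, with 172 higher over secretory gate cells. Thinned, they were 27 and 323 over ciliated, 281 and 538 over basal, and 84 and 65 over cycling gate cells, 123 lower over secretory gate cells, 1 and 1 over same-class cells, 119 and 35 by ciliated score, 21 and 77 for marker-rich over marker-thin members, and 24 between libraries. Among members with at least 3 gate genes, 412 were lower over ciliated, 245 higher over basal, 171 higher and 35 lower over secretory and 90 higher over cycling gate cells, and 96 stood apart between libraries. Using means of cells, 20 were lower over ciliated and 10 over secretory gate cells. Without doublet-marked cells, 16 were lower over ciliated gate cells and 2 higher over same-class cells. TMM scaling gave 150 higher and 31 lower over secretory gate cells, a next score of at most 0.25 of the top score gave 4 lower there, a minimum of 100 UMIs 222 higher and 104 lower over cycling gate cells, a ciliated score of 0.5 gave 469 lower, and adding the 9 cells past the cycle limit gave 218 higher in marker-rich members.

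Calls over the gates and for all members over same-class cells had to hold in every library used. Dropping a library eased that rule, so a rise in those counts was partly built in. Leaving out 1 library gave, higher and lower, 56 to 78 and 74 to 187 over ciliated, 597 to 675 and 378 to 395 over basal, 438 to 540 and 3 to 4 over secretory, and 369 to 443 and 162 to 231 over cycling gate cells. It gave 7 to 21 and 3 to 4 over same-class cells, 85 to 175 and 173 to 573 for marker-rich over marker-thin members, 160 to 247 and 35 to 71 for marker-rich over same-class cells, and 493 to 586 and 112 to 173 by ciliated score. Thinning reversed Myb over same-class cells (-1.61), C3 by ciliated score (0.25) and Crocc2 in marker-rich over marker-thin members (-0.58). Of the named gene values, 1644 kept their call and direction and 131 kept the direction only.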

Other observations

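A feature named eGFP, which the labels do not describe, stood at 929.7, 88.6, 0 and 1708 CPM in members of libraries 1 to 4, with UMIs in 14, 9, 0 and 26 members. No genotype was read from it. Myl7, an atrial myosin light chain picked after its values were seen, stood at 76.2, 552, 219 and 55.8 CPM in members, with 20.3% of its UMIs in 1 cell.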
